A study of Homo sapiens with 12 samples.

Results

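The genes described here encode the proteasome, its regulators and its assembly factors, taken as the protein-coding genes whose symbols start with PSMA, PSMB, PSMC, PSMD, PSME, PSMF or PSMG followed by a digit. This rule found 50 genes of the 36315 genes that could be paired with the deposited transcripts, and 48 of them were among the 21601 genes tested. The symbols PSMC3IP and PSME3IP1 belong to proteins that bind a proteasome subunit or act elsewhere and are no subunits themselves. RNA was measured in HMC3 cells, an immortalized human line used as a model of microglia, with 3 libraries in each of 4 groups. All cells were first transfected for 48 h with RNAiMAX and then received a pre-clustered Fc protein at 2 ug/mL for 24 h. The group EphB2 + ephrin-B1 siRNA received ephrin-B1 siRNA and EphB2-Fc, the group ephrin-B1 siRNA received ephrin-B1 siRNA and Ctrl-Fc, the group EphB2 received negative control siRNA and EphB2-Fc, and the group Ctrl received negative control siRNA and Ctrl-Fc. EphB2-Fc is the outer part of the receptor EphB2 joined to an antibody tail, and it engages ephrin-B ligands on the cell surface.

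The proteasome degrades proteins marked with ubiquitin. Its core particle stacks rings of alpha subunits, which gate the entrance, around rings of beta subunits, of which PSMB5, PSMB6 and PSMB7 cut the peptide chain. The 19S regulatory particle recognizes, unfolds and feeds in the substrate with the help of a ring of ATPases. After exposure to interferon many cell types build an immunoproteasome, in which PSMB8 takes the place of PSMB5, PSMB9 that of PSMB6 and PSMB10 that of PSMB7, and cap it with the PA28 activator of PSME1 and PSME2. These forms are known for producing peptides for presentation on MHC class I, and microglia raise them in inflamed or infected brain.

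The libraries held between 13230689 and 25785591 estimated counts. EFNB1, the gene targeted by the siRNA, had 7.10, 6.60 and 8.70 CPM in ephrin-B1 siRNA libraries, against 20.4, 17.4 and 19.3 CPM in Ctrl libraries, where CPM are counts scaled to the library total with edgeR's trimmed mean of M-values (TMM). The log2 fold change of EFNB1 was -1.35 ± 0.13 (SE; adjusted p = 0.00124 in edgeR's quasi-likelihood test, n = 3 each), and the call was lost without replicate 3 (adjusted p = 0.747). It had 6.56, 6.03 and 6.38 CPM in EphB2 + ephrin-B1 siRNA libraries, against 15.6, 18.8 and 18.4 CPM in EphB2 libraries (log2 fold change -1.47 ± 0.13, adjusted p = 0.00189). Of 10 microglia and myeloid markers, 2 (CSF1R and CD68) averaged at least 1 CPM, and AIF1 and CX3CR1 had under 10 counts over all libraries, whereas all 6 mesenchymal and pericyte markers averaged at least 1 CPM. The myeloid sum was 33.4 to 47.5 CPM in EphB2, against 24.6 to 32.2 CPM in Ctrl, mostly CD68. The mesenchymal sum was 3344 to 3664 CPM in EphB2, against 4148 to 4372 CPM in Ctrl, mostly COL1A1. COL1A1 averaged 2796 CPM in EphB2 and 3548 CPM in Ctrl, and COL1A2, PDGFRB and ACTA2 were also lower on average. TAGLN went the other way (115 CPM in EphB2, 94.9 CPM in Ctrl), and THY1 averaged 321 and 325 CPM. The part of these markers in the results below was not tested. Replicate numbers match the experiments given in the names of the submitted tables, so each test was repeated with replicate numbers as blocks. Calls of both fits are given where they differ. Beside a blocked adjusted p, a log2 fold change and SE come from the fit without the block unless stated otherwise.

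The starts of the immunoproteasome and PA28 genes are shown because these are the genes that interferon is known to induce, through factors that bind repeats of GAAA. The windows run from 250 bases before to 50 bases after the RefSeq start of each gene (GRCh38.p14, 5' to 3' on the strand of the gene), and capitals mark the letters GAAANNGAAA, searched on both strands. The windows lie at chr16:67936801-67937100, minus strand for PSMB10, at chr14:24135944-24136243, plus strand for PSME1, at chr14:24146561-24146860, minus strand for PSME2, at chr6:32843998-32844297, minus strand for the second of the starts given for PSMB8, and at chr6:32853942-32854241, plus strand for PSMB9.
PSMB10: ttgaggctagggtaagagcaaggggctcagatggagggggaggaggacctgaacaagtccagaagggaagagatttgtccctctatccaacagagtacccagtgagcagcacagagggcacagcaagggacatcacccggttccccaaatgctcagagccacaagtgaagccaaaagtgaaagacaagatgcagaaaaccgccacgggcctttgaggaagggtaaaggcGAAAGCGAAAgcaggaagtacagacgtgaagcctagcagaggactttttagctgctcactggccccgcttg
PSME1: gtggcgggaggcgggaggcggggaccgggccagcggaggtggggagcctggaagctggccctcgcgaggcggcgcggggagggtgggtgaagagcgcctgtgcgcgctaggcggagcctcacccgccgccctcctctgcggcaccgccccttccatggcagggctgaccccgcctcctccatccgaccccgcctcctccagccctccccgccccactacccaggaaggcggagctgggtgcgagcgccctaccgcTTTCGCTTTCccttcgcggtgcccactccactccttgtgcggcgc
PSME2: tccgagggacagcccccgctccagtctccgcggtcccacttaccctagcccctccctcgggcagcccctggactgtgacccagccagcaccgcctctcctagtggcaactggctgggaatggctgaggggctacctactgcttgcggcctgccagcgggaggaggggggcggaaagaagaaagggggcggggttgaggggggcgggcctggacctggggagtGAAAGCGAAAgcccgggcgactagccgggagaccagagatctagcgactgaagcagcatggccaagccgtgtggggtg
PSMB8: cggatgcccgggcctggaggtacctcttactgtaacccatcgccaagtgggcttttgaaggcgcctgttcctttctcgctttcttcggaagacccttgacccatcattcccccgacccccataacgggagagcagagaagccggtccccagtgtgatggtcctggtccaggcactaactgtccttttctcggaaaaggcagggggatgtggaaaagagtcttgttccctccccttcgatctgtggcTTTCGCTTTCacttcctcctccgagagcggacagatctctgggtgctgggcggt
PSMB9: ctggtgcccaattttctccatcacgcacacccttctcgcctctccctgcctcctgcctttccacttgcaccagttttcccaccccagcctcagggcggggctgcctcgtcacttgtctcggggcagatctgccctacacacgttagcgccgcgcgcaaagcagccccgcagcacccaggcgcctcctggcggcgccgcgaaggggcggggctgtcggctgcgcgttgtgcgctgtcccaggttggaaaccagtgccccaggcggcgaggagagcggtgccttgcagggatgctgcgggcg

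PSMB10, PSME1, PSME2 and the shown start of PSMB8 each held 1 match, and in all 4 it was the same 10 bases, GAAAGCGAAA, read on one strand or the other. The first base of the match stood at -21 in PSMB10, at 5 in PSME1, at -28 in PSME2 and at -4 in PSMB8, counted from the annotated start. The other RefSeq start of PSMB8 (window chr6:32844630-32844929, minus strand) and the start of PSMB9 had no match. Of the 42 tested members with a window, 7 held GAAANNGAAA in at least 1 window (the others were PSMA4, PSMB4 and PSMG4). It stood in 3.57% of all 35116 windows. Members were counted by gene and shares by window, here and for the motifs below, so count and share are unlike measures. The form GAAAGCGAAA stood in 5 of the 42 members and in 0.0997% of all windows. It was picked after the first search as the form most frequent in the windows of the 5 immunoproteasome and PA28 genes. Of the 5 members that held it, 4 (PSMB10, PSME1, PSME2 and PSMB8) are genes it was picked from, so this count is no test. TGACNNNGC, the core of the antioxidant response element through which NFE2L1 acts on proteasome genes, stood in 15 members and in 13.3% of all windows. GGGNNTTTCC, of NF-kB type, stood in 2 members and 1.91% of all windows. TTCNNNGAA, of STAT type, stood in 7 members and 7.66% of all windows. Of the 5 immunoproteasome and PA28 genes only PSMB8 held it. A match describes these letters and no more.

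Core particle and activator genes were the most abundant members per length. Transcript levels scaled for length and library size (TPM), averaged over the 12 libraries, had a median of 99.7 over 7 alpha ring genes and 98.6 over 10 beta ring genes, of 102 over 5 activator and inhibitor genes, and of 59.2 over 6 ATPases, 61.1 over 11 other 19S genes and 33.8 over 7 assembly chaperones. PSMA7, an alpha subunit, stood highest at 343 TPM, with PSMA5 lowest in its ring at 47.6 TPM. In the beta ring PSMB4, a non-catalytic subunit, averaged 243 TPM, and the lowest members were PSMB9 at 9.68 TPM and PSMB8 at 11.9 TPM. Among ATPases the range ran between 24.6 TPM for PSMC4 and 101 TPM for PSMC5, and among other 19S genes between 39.4 TPM for PSMD13 and 143 TPM for PSMD2, a scaffold for ubiquitin receptors. PSMF1, which encodes the inhibitor PI31, averaged 117 TPM and PSME4, the activator PA200, 28.2 TPM. The chaperones lay between 21.2 TPM for PSMG3 and 54.6 TPM for PSMG1, and the symbols that are no subunit were PSMC3IP at 19.3 TPM and PSME3IP1 at 76.3 TPM.

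**Figure D1:**
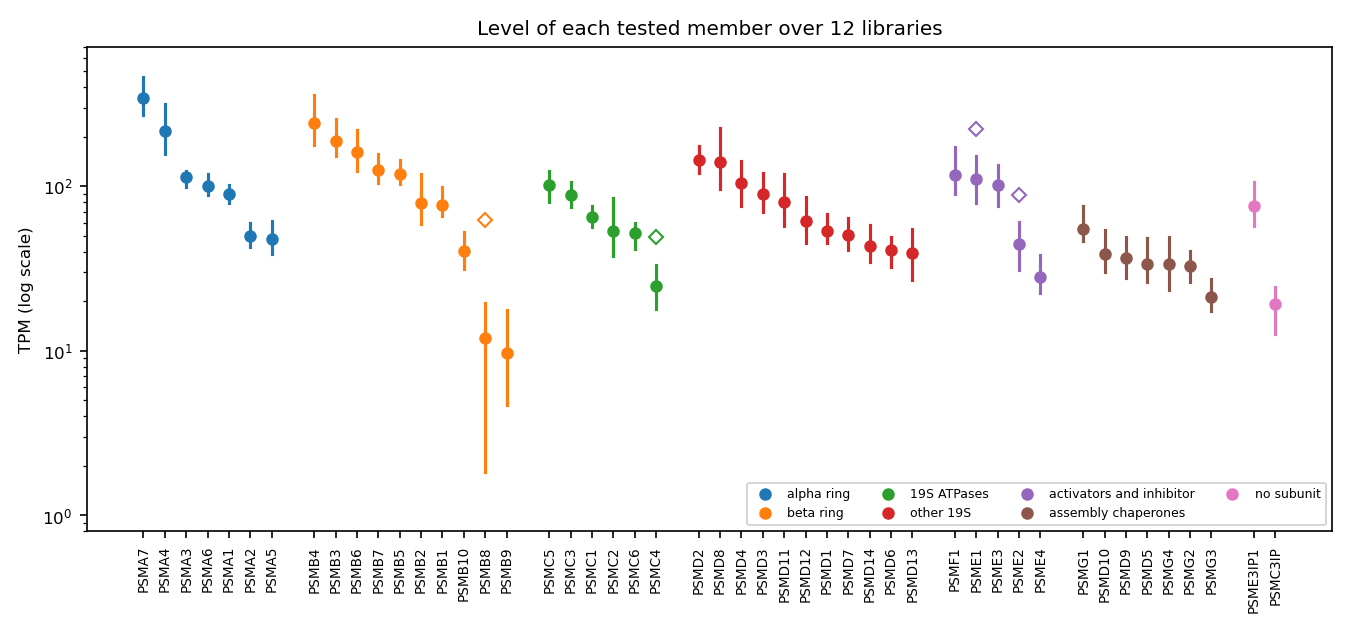
TPM (log axis) of the 48 tested members, ordered within each role, as the mean (filled point) and the range (line) over the 12 libraries. Open diamonds give the mean with identical unpaired transcript copies added, for the 4 members that this moved by more than 20%, and PSMB9, at 9.68 TPM, is the lowest point.

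Some of these levels are understated. The tables list unpaired transcripts whose counts equal those of member transcripts in every library to within 2% or 0.5 counts, as happens when reads are split evenly between identical reference copies. Such copies stood beside 99.9% of the counts of PSME1, 99.8% of PSME2, 100% of PSMC4 and 70.9% of PSMB8, and beside 5.09% of PSMB9 and 1.35% of PSMB3. With the copies added, the mean level was 222 TPM for PSME1, 88.9 TPM for PSME2, 49.2 TPM for PSMC4 and 62.4 TPM for PSMB8. The main PSMB8 transcript held 0.2 counts in Ctrl replicate 2, against 83.7 to 230.1 counts in the 11 other libraries, so the PSMB8 value of that library is doubtful. PSMA8, a testis form of an alpha subunit, had no counts in any library, and PSMB11, the thymus form of the beta ring, had 4 counts over all 12 libraries, and neither was tested. Exons of 24 tested members overlap those of another gene, on the opposite strand for 21, among them PSMB8 with PSMB9 and PSMB8-AS1. PSMB10 (with ENSG00000261884), PSMA1 and PSMA6 overlap another gene on the same strand only. Reads of all such pairs may be divided uncertainly.

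The share of each immunoproteasome subunit in its pair with the constitutive counterpart was low for PSMB8 and PSMB9 and higher for PSMB10. PSMB10 made up 31.1, 23.1 and 25.6% of PSMB10 + PSMB7 TPM in EphB2, against 23.4, 19.6 and 22.4% in Ctrl, and 32.5, 24.3 and 27.3% in EphB2 + ephrin-B1 siRNA, against 22.5, 21.2 and 21.7% in ephrin-B1 siRNA. The shares did not overlap with ephrin-B1 siRNA, whereas with control siRNA EphB2 replicate 2 lay within the Ctrl range. PSMB9 made up 8.69, 4.30 and 5.61% of PSMB9 + PSMB6 in EphB2, against 8.98, 3.69 and 4.85% in Ctrl, and 7.40, 3.20 and 6.70% in EphB2 + ephrin-B1 siRNA, against 6.31, 2.86 and 4.05% in ephrin-B1 siRNA, with the groups overlapping in both arms. PSMB8 made up 9.93, 6.44 and 6.81% of PSMB8 + PSMB5 in EphB2, against 12.8, 1.57 and 9.57% in Ctrl, and 12.9, 8.03 and 14.1% in EphB2 + ephrin-B1 siRNA, against 9.52, 6.53 and 10.03% in ephrin-B1 siRNA, again overlapping. With ephrin-B1 siRNA the PSMB8 and PSMB9 shares were higher with EphB2-Fc in all 3 same-numbered pairs. With the copies added PSMB8 made up 34.3, 27.5 and 26.7% in EphB2, against 44.7, 5.41 and 35.6% in Ctrl. PSME1 and PSME2 together made up 63.3% ± 0.0642 (SD, n = 3) of their sum with PSME3 in EphB2 and 61.9% ± 3.82 (SD, n = 3) in Ctrl, PSME3 being the PA28 gamma activator of the nucleus. With the copies added they made up 77.5% ± 0.0461 in EphB2 and 76.4% ± 2.96 in Ctrl.

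PSMB10 was the member with the largest response to EphB2-Fc. The gene (ENSG00000205220, chromosome 16, 67934506 to 67936864 on the minus strand, GENCODE 44 on GRCh38, as for the positions below) encodes the immunoproteasome subunit with trypsin-like activity. It had 26.6, 25.0 and 27.3 CPM in EphB2 libraries, against 21.1, 17.9 and 23.1 CPM in Ctrl libraries, and 34.4, 25.6 and 27.3 CPM in EphB2 + ephrin-B1 siRNA libraries, against 19.6, 19.9 and 19.6 CPM in ephrin-B1 siRNA libraries. In CPM the groups did not overlap in either pair, and EphB2-Fc was higher in 6 of 6 same-numbered pairs. Of all genes, 6.62% likewise lay wholly higher with EphB2-Fc under control siRNA, and 7.26% did under ephrin-B1 siRNA. In TPM the groups overlapped in both pairs, with 52.8, 33.6 and 43.1 TPM in EphB2, against 40.1, 31.3 and 34.7 TPM in Ctrl, and 50.2, 36.5 and 46.5 TPM in EphB2 + ephrin-B1 siRNA, against 45.2, 33.7 and 39.2 TPM in ephrin-B1 siRNA. Averaged over both siRNAs the log2 fold change was 0.46 ± 0.086 (SE, 1.37-fold, adjusted p = 0.0341 in edgeR's quasi-likelihood test), on the log2(TPM + 1) scale it was 0.22 (adjusted p = 0.430 in limma), and with the replicate block it was 0.46 ± 0.067 (adjusted p = 0.000455). Without the block the call was lost when any single library other than EphB2 + ephrin-B1 siRNA replicate 2 was left out (adjusted p of 0.0539 to 0.103, log2 fold changes of 0.38 to 0.50) or any whole replicate number was (adjusted p of up to 0.949), while with the block it held without replicate 3 (adjusted p = 0.00802). The single comparisons gave 0.35 ± 0.12 for EphB2 vs Ctrl (adjusted p = 0.526, 0.0507 with the block) and 0.56 ± 0.12 with ephrin-B1 siRNA (adjusted p = 0.162, 0.00262 with the block). In bulk RNA a change in the level per cell and a change in the share of cells that express a gene cannot be told apart. PSMB7, the counterpart, had 69.0, 90.3 and 85.3 CPM in EphB2, against 76.3, 86.0 and 89.4 CPM in Ctrl, with an averaged log2 fold change of -0.033 ± 0.073 (adjusted p = 0.919).

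The PA28 genes had smaller averaged log2 fold changes than PSMB10. On the log2(TPM + 1) scale PSME1 lay below 0 and PSME2 above 0, where the median of genes above 1 CPM in every library was -0.18. PSME2 (ENSG00000100911, chromosome 14, 24143362 to 24147570 on the minus strand) had 25.2, 21.4 and 27.2 CPM in EphB2, against 24.3, 16.8 and 22.2 CPM in Ctrl, and 28.5, 22.8 and 26.2 CPM in EphB2 + ephrin-B1 siRNA, against 22.6, 18.5 and 21.1 CPM in ephrin-B1 siRNA. The groups overlapped with control siRNA and not with ephrin-B1 siRNA, and EphB2-Fc was higher in 6 of 6 pairs. The averaged log2 fold change was 0.27 ± 0.11 (SE, adjusted p = 0.288), and with the block 0.28 ± 0.053 (adjusted p = 0.00310, 0.0768 when replicate 3 was also left out). PSME1 (ENSG00000092010, chromosome 14, 24136163 to 24138967 on the plus strand) had 82.3, 77.2 and 83.4 CPM in EphB2, against 87.4, 65.1 and 72.4 CPM in Ctrl, and 80.9, 61.1 and 68.6 CPM in EphB2 + ephrin-B1 siRNA, against 70.5, 53.2 and 57.4 CPM in ephrin-B1 siRNA. Both pairs of groups overlapped, and the averaged log2 fold change was 0.17 ± 0.096 (adjusted p = 0.512, 0.0198 with the block). PSME3 averaged 152 ± 14.0 CPM in EphB2 and 152 ± 6.06 CPM in Ctrl (SD, n = 3 each), and its averaged log2 fold change was 0.058 ± 0.056 (adjusted p = 0.734).

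PSMB9 and PSMB8 varied more between replicates than between groups. PSMB9 (ENSG00000240065, chromosome 6, 32844136 to 32859851 on the plus strand), which replaces the caspase-like subunit, had 9.94, 4.10 and 7.78 CPM in EphB2 + ephrin-B1 siRNA, against 7.68, 3.33 and 5.43 CPM in ephrin-B1 siRNA, and 9.71, 4.42 and 6.64 CPM in EphB2, against 11.01, 4.13 and 5.43 CPM in Ctrl. Replicate 1 was the highest and replicate 2 the lowest in each of the 4 groups, and replicate 1 exceeded replicate 2 by a mean log2 ratio of 1.26. In each group between 5.15% and 5.57% of 13079 genes above 1 CPM in every library differed at least 2-fold between those replicates, and of the members only PSMB9 did so in all 4 groups, with PSMB8 doing so in Ctrl. The averaged EphB2-Fc log2 fold change of PSMB9 was 0.22 ± 0.32 (adjusted p = 0.846, 0.148 with the block). PSMB8 (ENSG00000204264, chromosome 6, 32840717 to 32844679 on the minus strand), the chymotrypsin-like subunit, had 15.2, 9.71 and 16.6 CPM in EphB2 + ephrin-B1 siRNA, against 11.3, 8.77 and 11.6 CPM in ephrin-B1 siRNA, and 11.5, 8.34 and 8.01 CPM in EphB2, against 15.8, 2.32 and 12.4 CPM in Ctrl. Its log2 fold change for EphB2 vs Ctrl was -0.12 ± 0.49 (adjusted p = 0.988), and without Ctrl replicate 2, the doubtful library, it was -0.60. The counterparts PSMB5 and PSMB6 had averaged log2 fold changes of -0.032 ± 0.075 and -0.026 ± 0.046 (adjusted p = 0.925 and 0.885).

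**Figure D2:**
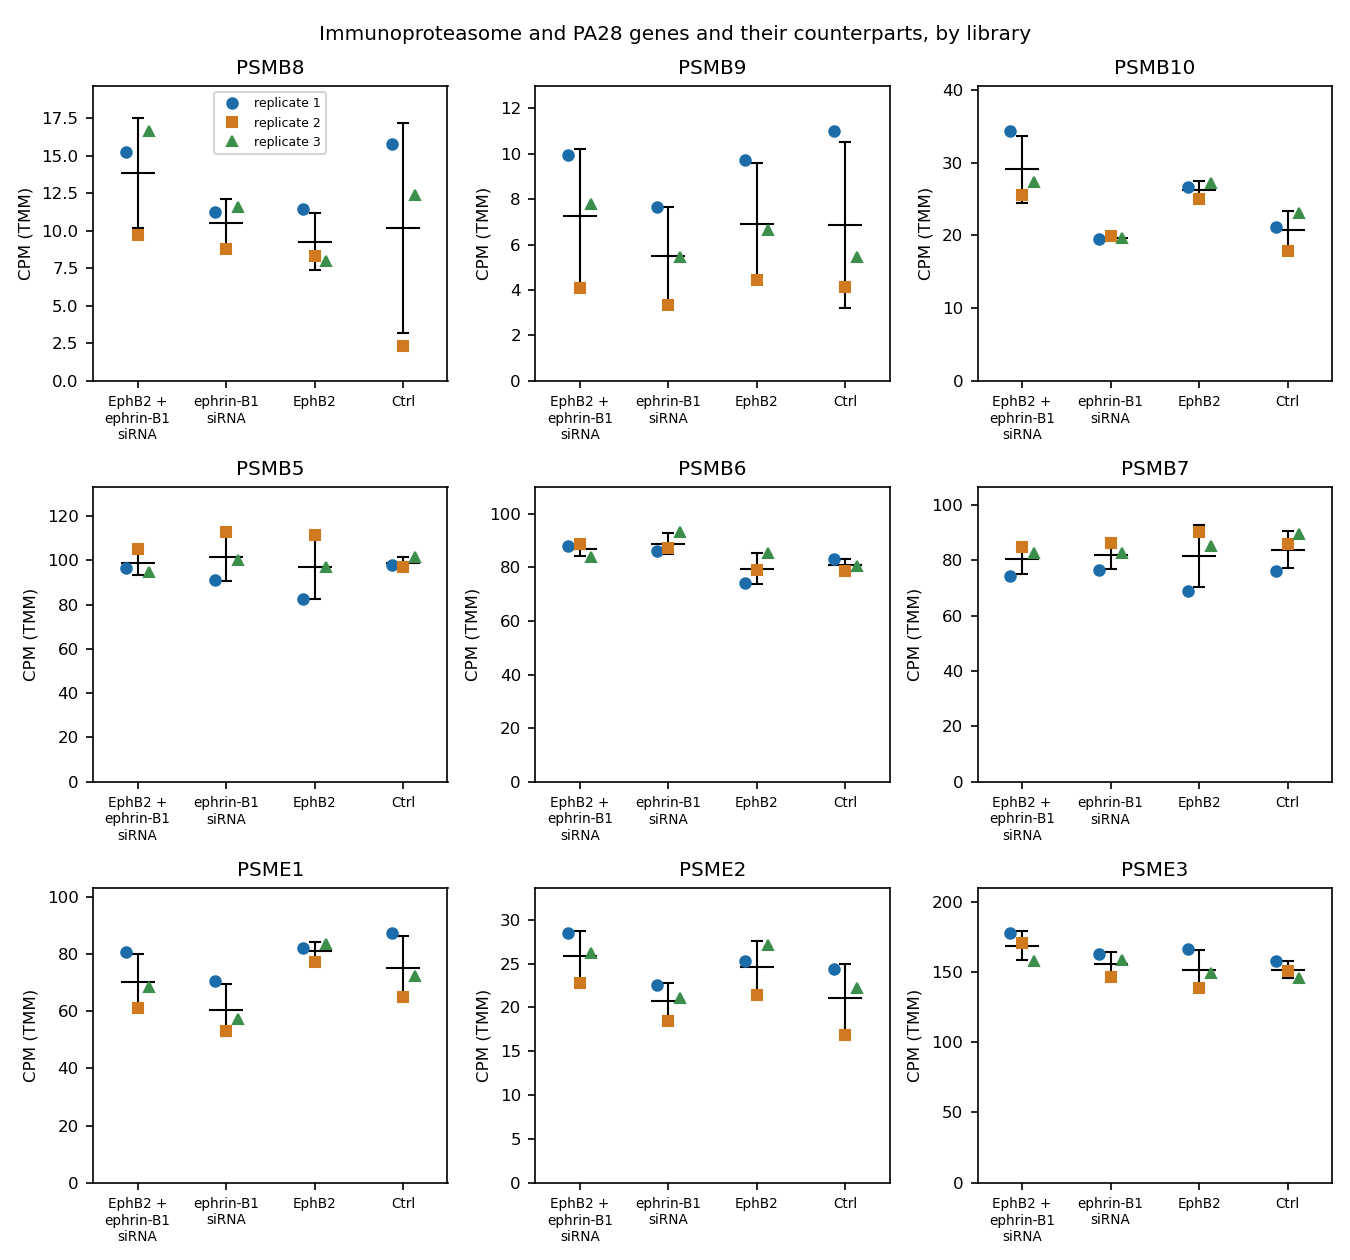
CPM (TMM-scaled, linear axis from 0) by library in the 4 groups for the 5 immunoproteasome and PA28 genes and for PSMB5, PSMB6, PSMB7 and PSME3. Points are libraries by replicate number, bars are the mean and SD of 3. PSMB10 libraries with EphB2-Fc lie between 25.0 and 34.4 CPM, against 17.9 to 23.1 CPM with Ctrl-Fc, whereas PSMB9 follows the replicate number.

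The 5 genes as a group were compared with the 43 other tested members by their medians, with no test. For EphB2-Fc with ephrin-B1 siRNA (EphB2 + ephrin-B1 siRNA against ephrin-B1 siRNA) the median log2 fold change was 0.39 over the 5 and 0.075 over the others, a difference of 0.32, with 0.27, 0.22 and 0.42 in the 3 same-numbered pairs. For EphB2 vs Ctrl it was 0.11 and 0.034, a difference of 0.079, with -0.084, 0.28 and 0.18 in the pairs, so that the sign was not the same in every pair. Without PSMB8 the differences were 0.29 and 0.13. The median of all tested genes was 0.000654 and 0.0070. The siRNA comparisons gave -0.071 for ephrin-B1 siRNA vs Ctrl and 0.0059 for EphB2 + ephrin-B1 siRNA vs EphB2, with -0.32, 0.13 and -0.090 in the pairs of ephrin-B1 siRNA vs Ctrl and 0.067, 0.020 and -0.026 in those under EphB2-Fc. Without PSMB8 they were -0.19 and 0.0046.

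Over the whole set, the averaged EphB2-Fc comparison asked how the proteasome genes respond to EphB2-Fc whichever siRNA the cells had received. Of the 48 tested members, 1 passed (PSMB10, higher), or 2.08%, beside 1.03% of all genes, and 9 had an unadjusted p under 0.05, beside 13.0%. DESeq2 called 4 members (PSMB10, PSMD1 and PSMD7 higher, PSMD10 lower), beside 3.73% of all genes, and limma 0, beside 0.0926%. With the replicate block 14 rose and 1 fell, or 29.2% and 2.08%, beside 5.65% and 8.37% of all genes. Left without replicate 3, the blocked fit called 2 members (PSMB10 and PSMC1), beside 5.0% of all genes. Log2 fold changes were above 0 for 36 of 48 members with TMM, but for 5 of 48 on the log2(TPM + 1) scale, where the median of 13079 genes above 1 CPM in every library was -0.18 (with TMM -0.018). Relative to that median 39 members lay above it with TMM and 36 on the TPM scale. Overlap between groups of single genes is given in CPM here. In CPM all EphB2 libraries lay above all Ctrl libraries for 3 of 48 members and below them for 2. The shares of all genes were 6.62% and 5.93%, so the members were near them. With ephrin-B1 siRNA this held in CPM for 9 and 1, beside 7.26% and 7.31%. In TPM all EphB2 libraries lay above all Ctrl libraries for 0 members and below them for 1, beside 3.49% and 4.41% of all genes. With ephrin-B1 siRNA this held in TPM for 0 and 10, beside 1.59% and 21.4%. The p-values measure the spread between these samples, which the study calls biological replicates.

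In the alpha ring 4 of 7 rose with the block, beside 5.65% of all genes, and none passed without it, beside 1.03%. Of the 4 that rose, PSMA1, PSMA6 and PSMA7 lay below 0 on the log2(TPM + 1) scale. There the median of genes above 1 CPM in every library was -0.18. PSMA3 had 67.4, 81.7 and 76.0 CPM in EphB2, against 64.9, 67.5 and 68.6 CPM in Ctrl, and 69.0, 82.0 and 74.4 CPM in EphB2 + ephrin-B1 siRNA, against 57.6, 72.6 and 63.9 CPM in ephrin-B1 siRNA, higher in 6 of 6 pairs although the groups overlapped in both arms. Its averaged log2 fold change was 0.19 ± 0.070 (adjusted p = 0.263, 0.00367 with the block), and those of PSMA7, PSMA6 and PSMA1 were 0.14 ± 0.056, 0.13 ± 0.066 and 0.13 ± 0.071 (blocked adjusted p = 0.00861, 0.0219 and 0.0479). PSMA5 had 0.11 ± 0.042 and missed the threshold (adjusted p = 0.280, 0.0534 with the block). Among the 7 constitutive beta genes none passed with or without the block, where edgeR's unadjusted p was under 0.05 for 0 of them, and PSMB4, PSMB1 and PSMB3, with the smallest p, had log2 fold changes of -0.065 ± 0.045, 0.056 ± 0.049 and 0.056 ± 0.052. The median was 0.13 over 7 alpha ring genes, beside 0.0093 over all genes.

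In the regulatory particle 6 of 17 genes (PSMC5, PSMD1, PSMD2, PSMD7, PSMD11 and PSMD13) rose with the block, beside 5.65% of all genes. None passed without it, beside 1.03%. All 6 lay below 0 on the log2(TPM + 1) scale, where the median of genes above 1 CPM in every library was -0.18. PSMD7, a scaffold next to the deubiquitinase PSMD14, had 54.8, 55.7 and 57.8 CPM in EphB2, against 52.0, 46.2 and 48.3 CPM in Ctrl, and 56.5, 58.7 and 59.8 CPM in EphB2 + ephrin-B1 siRNA, against 53.9, 53.4 and 51.1 CPM in ephrin-B1 siRNA. No group of a pair overlapped the other, and the averaged log2 fold change was 0.17 ± 0.044 (adjusted p = 0.102, 0.00856 with the block). PSMD11, whose protein is known to promote assembly of the regulatory and core particles, had 206, 171 and 187 CPM in EphB2, against 175, 152 and 163 CPM in Ctrl. EphB2 replicate 2 lay within the Ctrl range, and each EphB2 library was higher than the Ctrl library of its number. The averaged log2 fold change of PSMD11 was 0.16 ± 0.070 (adjusted p = 0.342, 0.00094 with the block). PSMD2 differed by replicate number, with 228, 365 and 319 CPM in EphB2, against 226, 316 and 291 CPM in Ctrl, and had 0.21 ± 0.14 (adjusted p = 0.576, 0.00401 with the block). PSMD1, the largest scaffold, had 0.099 ± 0.036 (blocked adjusted p = 0.0243) and PSMD13 0.15 ± 0.16 (blocked adjusted p = 0.0496). Of the 6 ATPases PSMC5 had 0.11 ± 0.054 without the block and passed only with it (blocked adjusted p = 0.0430). PSMC4, PSMC1 and PSMC2 had 0.14 ± 0.089, 0.12 ± 0.098 and 0.049 ± 0.066 and did not pass.

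**Figure D3:**
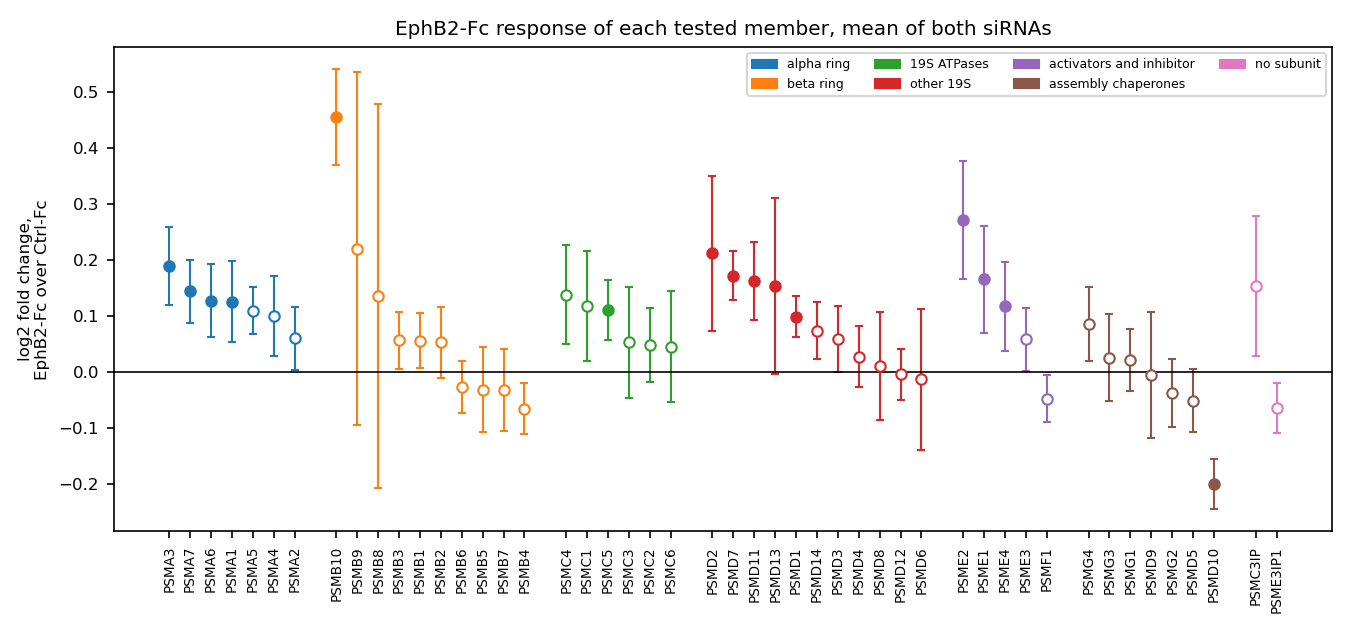
Log2 fold change of EphB2-Fc over Ctrl-Fc, averaged over both siRNAs (edgeR without a block, TMM), for the 48 tested members ordered within each role, with the SE as bars. Filled points passed with the replicate block. PSMB10 is highest at 0.46 and PSMD10 lowest at -0.20, and 36 of 48 points lie above 0, against 5 of 48 on the log2(TPM + 1) scale. On that scale the median of genes above 1 CPM in every library was -0.18.

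PSMD10 moved the other way. The gene (ENSG00000101843, chromosome X, 108084207 to 108091549 on the minus strand) encodes gankyrin, a chaperone of the ATPase ring that is also known to act on the p53 and RB pathways. It had 36.4, 38.6 and 35.4 CPM in EphB2, against 43.3, 43.0 and 42.5 CPM in Ctrl, and 34.3, 34.9 and 36.8 CPM in EphB2 + ephrin-B1 siRNA, against 41.5, 39.8 and 38.6 CPM in ephrin-B1 siRNA. The groups did not overlap in either arm, ephrin-B1 siRNA also lay below Ctrl in all libraries, and the averaged log2 fold change was -0.20 ± 0.045 (adjusted p = 0.0632, 0.00398 with the block, 0.0531 when replicate 3 was also left out). The 6 other chaperone genes did not pass, and PSMG4, PSMD5 and PSMG2 had 0.086 ± 0.066, -0.051 ± 0.056 and -0.037 ± 0.060. Among the activators PSME4 had 0.12 ± 0.080 (adjusted p = 0.597, 0.0363 with the block) and the inhibitor gene PSMF1 -0.048 ± 0.042 (adjusted p = 0.703). PSME4 lay below 0 on the log2(TPM + 1) scale, where the median of genes above 1 CPM in every library was -0.18. PSMC3IP, which acts in meiotic recombination, had 0.15 ± 0.12 and PSME3IP1, a partner of PSME3, -0.064 ± 0.044, and neither passed.

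EphB2 vs Ctrl, the response with control siRNA, had 0 of 48 members past the threshold in edgeR without the block, beside 0.037% of all genes, 0 in DESeq2 (beside 0.94% of all genes) and 0 in limma (beside 0%), and 3 with an unadjusted p under 0.05 (PSMD10, PSMD7 and PSMB10), beside 7.56%. With the block 2 rose (PSMD11 and PSMD7) and 1 fell (PSMD10), or 4.17% and 2.08%, beside 2.13% and 3.2% of all genes, so that the share of members was near that of all genes. The blocked log2 fold changes were 0.20 ± 0.037 for PSMD11 (adjusted p = 0.00563), 0.20 ± 0.055 for PSMD7 (adjusted p = 0.0490) and -0.22 ± 0.057 for PSMD10 (adjusted p = 0.0351), and when replicate 3 was left out of the blocked fit 0 of 48 (beside 0.678% of all genes) passed (adjusted p = 0.198, 0.423 and 0.278 for these 3). PSMD1 had 0.086 ± 0.051 and did not pass.

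With ephrin-B1 siRNA, EphB2-Fc gave 0 of 48 members past the threshold in edgeR without the block, beside 0.116% of all genes, 1 in DESeq2 (beside 1.25% of all genes) and 0 in limma (beside 0.00926%), and 6 at an unadjusted p under 0.05, beside 8.46%. With the block 6 rose and 0 fell, or 12.5% and 0%, beside 2.82% and 4.11% of all genes. Those that rose were PSMB10, PSME2, PSMA3, PSMA7, PSMC5 and PSMD2. On the log2(TPM + 1) scale all of these but PSMB10 lay below 0, where the median of genes above 1 CPM in every library was -0.29. Relative to the median 38 of 48 members lay above it on that scale, and 38 with TMM. Without replicate 3 the blocked fit called 1 of 48 (beside 0.818% of all genes), PSMB10, which was also the member called in DESeq2. PSMA7 had 252, 222 and 240.1 CPM in EphB2 + ephrin-B1 siRNA, against 219, 194 and 207 CPM in ephrin-B1 siRNA, and the groups did not overlap (blocked log2 fold change 0.21 ± 0.046, adjusted p = 0.0157). PSMC5 had 90.5, 94.5 and 93.7 CPM in EphB2 + ephrin-B1 siRNA, against 79.7, 79.5 and 85.4 CPM in ephrin-B1 siRNA, and these groups did not overlap (blocked 0.19 ± 0.048, adjusted p = 0.0296). PSMD10 and PSMA5 had -0.18 ± 0.063 and 0.17 ± 0.059 without the block and did not pass in either fit.

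The responses with and without ephrin-B1 siRNA were set against each other as an interaction. It passed for 0 members in edgeR without the block, 0 with it, 0 in DESeq2 (beside 0.00926% of all genes) and 0 in limma (beside 0%), and 0 had an unadjusted p under 0.05, beside 2.31%. Of all genes 0% passed without the block, 0% and 0.00463% were called higher and lower with it, and 0.029% were called with it when replicate 3 was left out. The smallest p were those of PSMD14, PSMC5, PSMA5, PSMB10 and PSMA2, with differences in log2 fold change of 0.17 ± 0.10, 0.15 ± 0.11, 0.11 ± 0.084, 0.22 ± 0.17 and 0.14 ± 0.11 (SE). Such differences were above 0 for 36 of 48 members with TMM, but for 2 of 48 on the log2(TPM + 1) scale. There the median of genes above 1 CPM in every library was -0.22. Relative to the median 37 members lay above it with TMM and 33 on the TPM scale. A difference between the arms was not detectable at this replication, which does not show that they were alike.

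The siRNA itself was compared under Ctrl-Fc. For ephrin-B1 siRNA vs Ctrl 0 members passed in edgeR without the block, beside 1.81% of all genes, 0 in DESeq2 (beside 4.66% of all genes) and 0 in limma (beside 0%), and 4 had an unadjusted p under 0.05, beside 12.1%. With the block 4 rose (PSME4, PSMD11, PSMA4 and PSMB4) and 3 fell (PSMD13, PSME1 and PSMD2), or 8.33% and 6.25%, beside 6.51% and 7.06% of all genes, which is close to the share of all genes. Log2 fold changes were above 0 for 22 of 48 members with TMM, but for 44 of 48 on the log2(TPM + 1) scale. There the median of genes above 1 CPM in every library was 0.18. Relative to the median 22 members lay above it with TMM and 24 on the TPM scale. PSMD13 (ENSG00000185627, chromosome 11, 236966 to 252984 on the plus strand), a structural subunit of the regulatory particle lid, showed the largest difference. It had 27.6, 39.8 and 32.2 CPM in ephrin-B1 siRNA, against 39.2, 59.6 and 51.1 CPM in Ctrl, and 30.8, 48.3 and 37.0 CPM in EphB2 + ephrin-B1 siRNA, against 38.8, 61.6 and 58.8 CPM in EphB2. Replicate 1 was lowest and replicate 2 highest in each group, the groups overlapped in both arms, and the siRNA library was lower in 6 of 6 same-numbered pairs. The blocked log2 fold change was -0.59 ± 0.069 (adjusted p = 7.45e-05, 0.00510 without replicate 3) for ephrin-B1 siRNA vs Ctrl, where the fit without the block gave -0.59 ± 0.22 (adjusted p = 0.284).

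PSME1 was also lower with the siRNA, at 70.5, 53.2 and 57.4 CPM in ephrin-B1 siRNA, against 87.4, 65.1 and 72.4 CPM in Ctrl, with a blocked log2 fold change of -0.31 ± 0.063 (adjusted p = 0.00449). PSMD2 had a blocked value of -0.25 ± 0.057 (adjusted p = 0.00802), and PSME4, PSMD11, PSMA4 and PSMB4 had 0.20 ± 0.048, 0.15 ± 0.037, 0.16 ± 0.047 and 0.14 ± 0.044. When replicate 3 was left out of the blocked fit 1 of 48 (beside 4.01% of all genes) passed, PSMD13. PSME3IP1 and PSMB6 had -0.16 ± 0.062 and 0.14 ± 0.066 and did not pass. Under EphB2-Fc, EphB2 + ephrin-B1 siRNA vs EphB2 had 0 members past the threshold without the block, beside 0.616% of all genes, 0 in DESeq2 (beside 3.05% of all genes) and 0 in limma (beside 0.00926%), and 0 at an unadjusted p under 0.05, beside 10.4%. With the block 2 rose (PSMC3 and PSMD12) and 2 fell (PSMD13 and PSME1), or 4.17% each, beside 4.53% and 5.4% of all genes. The blocked values were 0.20 ± 0.047 for PSMC3, an ATPase, 0.14 ± 0.040 for PSMD12, -0.45 ± 0.068 for PSMD13 and -0.21 ± 0.063 for PSME1 (adjusted p = 0.0146, 0.0428, 0.000995 and 0.0449), and without replicate 3 the blocked fit called 0 of 48 (beside 1.61% of all genes). PSMB4, PSMD4 and PSME3 had 0.13 ± 0.064, 0.15 ± 0.077 and 0.16 ± 0.079 and did not pass.

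**Figure D4:**
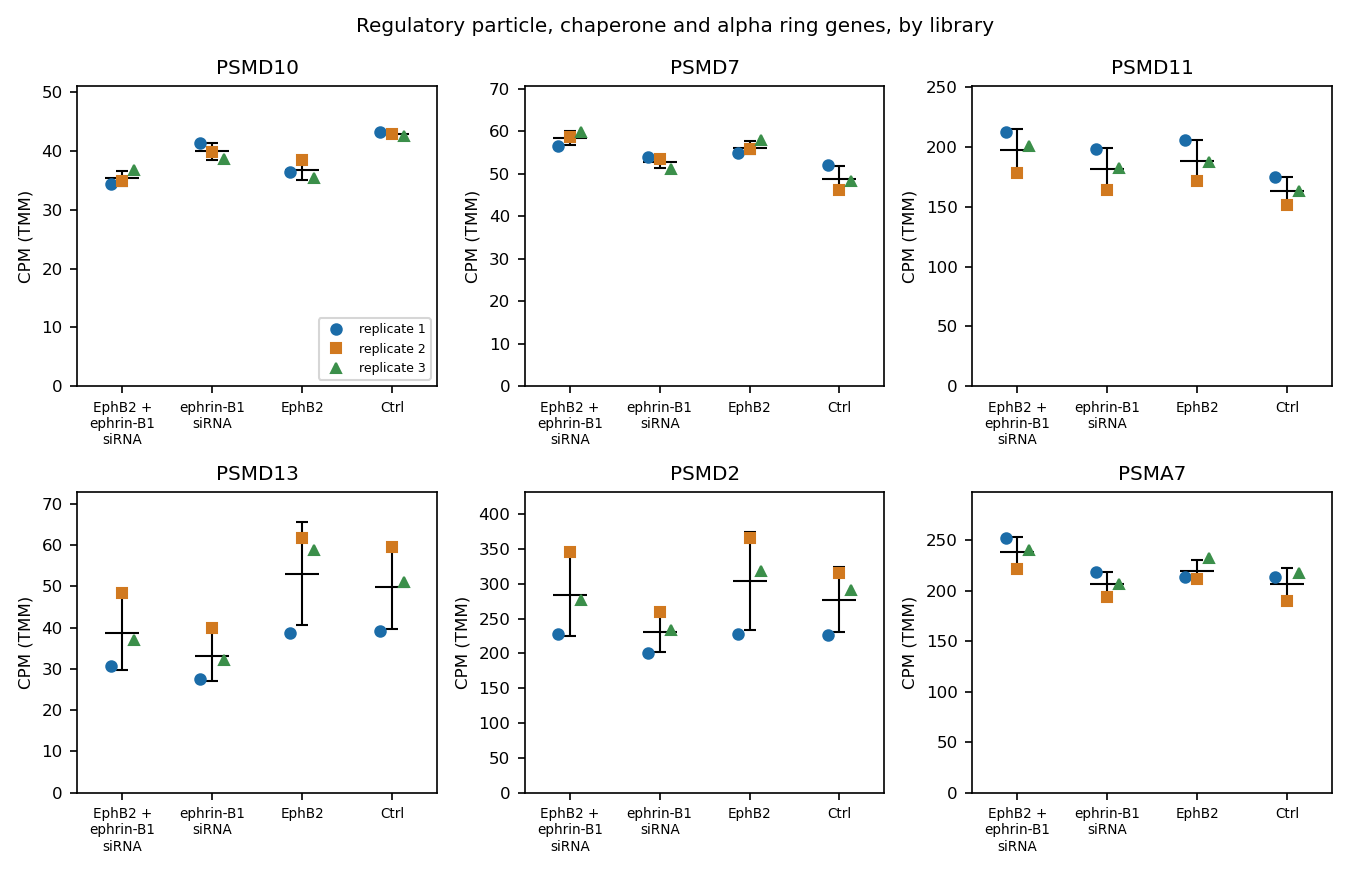
CPM (TMM-scaled, linear axis from 0) by library in the 4 groups for PSMD10, PSMD7, PSMD11, PSMD13, PSMD2 and PSMA7, with points by replicate number and bars for the mean and SD of 3. PSMD10 averages 36.8 ± 1.63 CPM in EphB2 and 42.9 ± 0.373 CPM in Ctrl, and PSMD13 averages 33.2 ± 6.18 CPM in ephrin-B1 siRNA and 49.9 ± 10.2 CPM in Ctrl.

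The combined treatment was also set against Ctrl, which shares its Ctrl libraries with the comparisons above. Of 48 members 1 passed (PSMD10, lower), or 2.08%, beside 2.01% of all genes. An unadjusted p under 0.05 was found for 10, beside 13.3%, and the calls were 3 in DESeq2 (beside 5.3% of all genes) and 0 in limma (beside 0.0185%). With the block without replicate 3 the calls were 6 of 48 (beside 5.62% of all genes), and over all replicates 12 rose and 3 fell with the block, or 25% and 6.25%, beside 6.06% and 9.04%. PSMD10 had a log2 fold change of -0.28 ± 0.064 (adjusted p = 0.0484, 0.00356 with the block), and without the block it failed in 14 of the 15 fits that left out a library or a replicate number, all but the fit without EphB2 replicate 2 (adjusted p of 0.0498 to 1). PSMB10 had 0.49 ± 0.12 (adjusted p = 0.0676, 0.00245 with the block) and PSMD7 0.26 ± 0.063 (adjusted p = 0.0636, 0.00553 with the block). PSME3IP1 and PSMD11 had -0.20 ± 0.063 and 0.27 ± 0.099 (blocked adjusted p = 0.0219 and 0.000213). In CPM all 3 combined libraries lay above all 3 Ctrl libraries for 13 members and below them for 2, or 27.1% and 4.17%, beside 9.05% and 9.27% of all genes, but in TPM for 1 (PSMC3IP) and 1 (PSMD10), beside 3.08% and 10.4%.

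Genes outside the symbol rule that work with the proteasome were followed in 3 lists in the averaged EphB2-Fc comparison. The lists were chosen with earlier results of these data known, so their counts beside the shares of all genes are no test. Of 15 genes of peptide transport and interferon regulation the calls were 3 higher and 0 lower without the block and 8 higher and 0 lower with it, beside 0.431% and 0.602% of all genes without the block and 5.65% and 8.37% with it, with a median log2 fold change of 0.18. LAP3, a cytosolic aminopeptidase induced by interferon gamma, had 0.55 ± 0.073 (adjusted p = 0.00547), TAPBP, the tapasin of the peptide-loading complex, 0.51 ± 0.086 (adjusted p = 0.0232), and ERAP1, which trims peptides, 0.31 ± 0.059 (adjusted p = 0.0381). Of 12 genes of ubiquitin and ISG15 conjugation the calls were 0 higher and 0 lower without the block and 6 higher and 0 lower with it, beside the same shares of all genes (5.65% and 8.37% with the block), with a median of 0.13, among them ISG15 at 0.64 ± 0.22, UBE2L6 at 0.52 ± 0.20, UBA7 at 0.18 ± 0.073 and USP18 at 0.65 ± 0.30 (blocked adjusted p = 0.000112, 6.95e-06, 0.0466 and 0.000109). Of 23 proteasome cofactors the calls were 0 higher and 0 lower without the block and 6 higher and 1 lower with it, beside 5.65% and 8.37% of all genes with the block, with a median of -0.0058. POMP, the maturation factor of the core particle, had 0.20 ± 0.057 and ADRM1, a ubiquitin receptor of the regulatory particle, 0.16 ± 0.060 (blocked adjusted p = 0.0129 and 0.0122), while PAAF1, an ATPase ring chaperone, had -0.14 ± 0.057 (blocked adjusted p = 0.0431) and NPLOC4, a partner of VCP, 0.091 ± 0.039.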

How the data were processed

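The authors quantified paired reads of 12 rRNA-depleted libraries with kallisto against the Ensembl 109 cDNA of GRCh38, and deposited for each library 1 table of estimated counts and TPM per transcript, with the effective length, without further normalization. The kallisto version is not given in the sources used here. Transcripts were paired with genes of GENCODE 44 (167067 of 188753, with 95.25% to 95.98% of a library's counts). These deposited estimated counts were added up by gene, rounded to whole numbers and, for the 21601 genes that reached 10 counts over all libraries, tested in edgeR 4.0.16 (quasi-likelihood test, TMM, all 4 groups in 1 fit, Benjamini-Hochberg over all genes, threshold 0.05). An adjusted p with no tool named comes from this test. The alternatives were a replicate block, DESeq2 1.42.0, limma 3.58.1 on log2(TPM + 1), other filters and scalings, left-out libraries and, added after seeing the data, identical transcript copies. Over 6 pairs each, deviations from group means correlated at 0.71 to 0.76 in replicate 1, at 0.72 to 0.75 in replicate 2 and at 0.09 to 0.2 in replicate 3, and the submitted file names give same-numbered libraries the same experiment, so the numbers were taken to pair. Named members are the 5 immunoproteasome and PA28 genes, their counterparts, up to 4 members per role with the smallest p in the averaged comparison, up to 5 in each other comparison, all calls of EphB2 vs Ctrl, members that failed the filter, the highest and lowest of each role, and up to 4 genes per list. A gene of 1 of these lists is not reported here. Members and lists were chosen with earlier results of these data known. RefSeq promoter windows (GRCh38.p14) were found for 42 of 48 tested members.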

Additional observations from a re-analysis of the deposited data

Results flagged for a closer look

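PSMD12, a structural subunit of the regulatory particle lid, was lower with EphB2-Fc in each same-numbered pair with control siRNA (log2 differences of -0.054, -0.020 and -0.062) and higher in each pair with ephrin-B1 siRNA (0.031, 0.065 and 0.013). The responses were thus opposite in sign in every pair, but the interaction was 0.083 ± 0.091 (SE) with an adjusted p of 1 in edgeR's quasi-likelihood test. PSMD12 was picked for this pattern, so the pattern is no test, and the share of all genes with it is not given here.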

How the results depend on the processing

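The counts of members past the threshold without the block were 0, 0, 1, 0, 0 and 1 in EphB2 vs Ctrl, EphB2-Fc with ephrin-B1 siRNA, the averaged EphB2-Fc comparison, ephrin-B1 siRNA vs Ctrl, the siRNA under EphB2-Fc and the combined treatment vs Ctrl. With the replicate block they were 3 in EphB2 vs Ctrl, 6 in EphB2-Fc with ephrin-B1 siRNA, 15 in the averaged EphB2-Fc comparison, 7 in ephrin-B1 siRNA vs Ctrl, 4 in the siRNA under EphB2-Fc and 15 in the combined treatment vs Ctrl, with the block in DESeq2 1 in EphB2 vs Ctrl, 7 in EphB2-Fc with ephrin-B1 siRNA, 12 in the averaged EphB2-Fc comparison, 7 in ephrin-B1 siRNA vs Ctrl, 5 in the siRNA under EphB2-Fc and 13 in the combined treatment vs Ctrl, and with the block but without replicate 3 1 in EphB2-Fc with ephrin-B1 siRNA, 2 in the averaged EphB2-Fc comparison, 1 in ephrin-B1 siRNA vs Ctrl and 6 in the combined treatment vs Ctrl. DESeq2 without the block called 1 in EphB2-Fc with ephrin-B1 siRNA, 4 in the averaged EphB2-Fc comparison and 3 in the combined treatment vs Ctrl. A stricter low-count filter (filterByExpr) called 2 in the averaged EphB2-Fc comparison and 3 in the combined treatment vs Ctrl. No low-count filter, DESeq2 size factors and a fit of only the groups compared (not run for the averaged comparison and the interaction, which need all groups) called 0 in the combined treatment vs Ctrl. The length offset and limma on log2(TPM + 1) called 0 in the averaged EphB2-Fc comparison and 0 in the combined treatment vs Ctrl. With identical copies added, an alternative chosen after seeing the data, the blocked counts were 3 in EphB2 vs Ctrl, 7 in EphB2-Fc with ephrin-B1 siRNA, 16 in the averaged EphB2-Fc comparison, 7 in ephrin-B1 siRNA vs Ctrl, 4 in the siRNA under EphB2-Fc and 15 in the combined treatment vs Ctrl. Leaving out libraries or replicate numbers gave 0 to 1 members in the averaged EphB2-Fc comparison and in the combined treatment vs Ctrl, and the immunoproteasome median minus the median of the others then ranged between 0.0084 and 0.33 for EphB2 vs Ctrl, 0.17 and 0.50 for EphB2-Fc with ephrin-B1 siRNA, -0.40 and 0.099 for ephrin-B1 siRNA vs Ctrl and -0.089 and 0.17 for the siRNA under EphB2-Fc. For the siRNA under EphB2-Fc that difference was 0.071 with the block and without replicate 3 and 0.068 with identical copies added. By the most abundant transcript alone PSMB10 made up 20.9% of its pair in EphB2 and 15.6% in Ctrl, and PSME1 + PSME2 77.0% and 76.5% of their sum with PSME3, which was 41.1% and 38.7% by CPM and 77.5% and 76.4% with copies added. PSMB8 then made up 29.5% and 28.6%. EFNB1 had a log2 fold change of -0.95 in limma on log2(TPM + 1), no longer past the threshold (adjusted p = 0.325), and -1.48 to -1.26 with libraries left out. For single members, 843 values under alternatives that left out no library were compared: 651 kept direction and side of the threshold, 152 passed in place of missing it, 7 no longer passed and 33 turned sign. On the log2(TPM + 1) scale, whose median over all genes lay -0.18 from 0 in the averaged EphB2-Fc comparison and -0.29 in EphB2-Fc with ephrin-B1 siRNA, the log2 fold change turned sign for PSMA1 -0.015, PSMA6 -0.052, PSMA7 -0.034, PSMC5 -0.077, PSMD1 -0.072, PSMD11 -0.020, PSMD13 -0.063, PSMD2 -0.014, PSMD7 -0.0049, PSME1 -0.013, PSME3 -0.068 and PSME4 -0.051 in the averaged comparison, and for PSMA3 -0.055, PSMA7 -0.085, PSMC5 -0.10, PSMD2 -0.029, PSME1 -0.079, PSME2 -0.024 and PSME3 -0.13 with ephrin-B1 siRNA. For EphB2 vs Ctrl PSMB8 turned to 0.000249, 0.082, 0.35 and 0.17 (block, block in DESeq2, block without replicate 3, limma), PSME3 to values of -0.0010, -0.0023, -0.0059, -0.0020, -0.034, -0.000636 and -0.0011, and PSMB9 to -0.075 with the block and without replicate 3. PSMB5 and PSMB6 turned to 0.0057 and 0.043 in that fit with ephrin-B1 siRNA. Leaving out libraries turned the sign of some single genes, with ranges of PSMB5 -0.16 to 0.076, PSMB6 -0.094 to 0.048, PSMB7 -0.12 to 0.065, PSMB8 -0.60 to 0.34, PSMB9 -0.29 to 0.54, PSME3 -0.071 to 0.061, PSMB5 -0.11 to 0.047, PSMB6 -0.058 to 0.043, PSMB7 -0.071 to 0.036, PSMB5 -0.087 to 0.020, PSMB7 -0.072 to 0.021 and PSMB8 -0.10 to 0.36 in the comparisons EphB2 vs Ctrl, EphB2-Fc with ephrin-B1 siRNA and the averaged EphB2-Fc comparison, in that order of comparisons. The cause of these changes was not tested. At the levels of PSMB8 and PSMB9 the spread between replicates limits what can be called.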

Other observations

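B2M and TAP1 had the replicate pattern of PSMB9, and other genes of antigen processing, such as CALR and CANX, did not have it in every group. B2M, the light chain of MHC class I, had 613, 266 and 536 CPM in EphB2 + ephrin-B1 siRNA, against 732, 229 and 437 CPM in ephrin-B1 siRNA, and 667, 262 and 527 CPM in EphB2, against 559, 186 and 301 CPM in Ctrl. TAP1, the peptide transporter whose gene lies beside PSMB9, had 68.9, 30.5 and 51.9 CPM in EphB2 + ephrin-B1 siRNA, against 55.8, 25.8 and 38.1 CPM in ephrin-B1 siRNA, and 67.7, 29.0 and 40.9 CPM in EphB2, against 49.8, 17.7 and 30.9 CPM in Ctrl. For B2M and TAP1 replicate 1 was highest and replicate 2 lowest in all 4 groups. CALR, a chaperone of MHC class I, had 1175, 1272 and 1290.0 CPM in EphB2, against 1176, 1182 and 1146 CPM in Ctrl, and CANX, another, 136, 146 and 149 CPM in EphB2 + ephrin-B1 siRNA, against 139, 116 and 144 CPM in ephrin-B1 siRNA. Among the members PSMD13, PSMD2 and PSMD6 ran the other way, with mean log2 ratios of replicate 1 over replicate 2 of -0.61, -0.53 and -0.49. PSMB10 differed less by replicate, with a mean log2 ratio of 0.18. These genes were chosen after their values were seen.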
